A study of Mus musculus with 8 samples.

Results

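The 10 genes of fatty acid uptake and storage described here were followed through the epidermis of mice that lack EED. They are Fabp4, Fabp5, Lpl, Pparg, Cd36, Plin1, Plin2, Adipoq, Scd1 and Cidec, and they were found on the array through the RefSeq accession that names each probe. They are 10 of 21154 genes named on the array and are read by 12 of its 55681 probes, with a pair of probes each for Lpl and Cidec and a single probe for each of the other 8 genes. The genes were chosen with the difference between the genotypes on these arrays already known, so that their own differences are described here without p-values. Where a member is said to be called, its adjusted p was below 0.05 in the fit named. Such calls only describe how the values shift between settings and are no evidence for a difference.

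Triglyceride carried in the blood is split by lipoprotein lipase, the fatty acids enter cells with the help of CD36, and small binding proteins of the FABP family carry them in the cytoplasm. Stored fat sits in droplets coated by perilipins and CIDE proteins, and the nuclear receptor PPARγ switches on much of this machinery in fat cells. Epidermal keratinocytes also take up and make fatty acids, since lipids between the cornified cells form part of the skin barrier, and they are known to express Fabp5 and Plin2. The members were therefore read in 3 classes. Those labelled adipocyte-restricted were Fabp4, Plin1, Adipoq and Cidec, though macrophages and capillary endothelium also make Fabp4. Pparg, Lpl, Cd36 and Scd1 were the genes that adipocytes share with other cell types. Fabp5 and Plin2 were the genes that keratinocytes also express. The question put to the arrays was whether the genes labelled adipocyte-restricted move together with those that keratinocytes also express.

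RNA came from dissociated back skin epidermis of C57BL/6 mice at birth (P0), 4 EED cKO (K14-Cre; EED flox/flox) and 4 control animals. EED is a core subunit of Polycomb repressive complex 2, which places a repressive methyl mark on histone H3, and K14-Cre removes the gene in Krt14(+) epidermal progenitors and their descendants. The labels call the other animals only control. In its RT-qPCR of EED cKO epidermis the study set the knockouts against siblings without Cre, and whether the array controls had that genotype is not stated. Each RNA was hybridized together with Universal Mouse Reference RNA to an Agilent 2-colour expression array, with the sample in Cy3 on replicates 1 and 3 and in Cy5 on replicates 2 and 4 of both genotypes. All values below are log2 ratios of sample over reference unless another scale is named, so that a level of 0 means the same signal as in the reference.

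Eed itself averaged -1.80 ± 0.17 in the EED cKO and -0.35 ± 0.13 in the control animals (SD, n = 4 each), a log2 difference of -1.46 with a standard error of 0.09 (limma adjusted p = 1.91e-05). The sample channel was well above background at 51.5% to 65.5% of the spots of an array, and 0 spots were saturated. The 8 arrays lay on 1 slide where each genotype filled a row of its own, so that slide row and genotype cannot be told apart. RNA of the Y-linked genes Ddx3y and Eif2s3y was high on controls 2 and 3 and on 0 of the 4 EED cKO arrays, so values with controls 1 and 4 alone are given beside the calls that they change. Of 30727 probes tested across the array, 6135 (20%) passed an adjusted p of 0.05, 3350 higher (10.9%) and 2785 lower (9.06%) in EED cKO, and 323 (1.05%) also reached 2-fold, 292 of them higher (0.95%) and 31 lower (0.101%). The total fell to 4030 without EED cKO 3, to 3523 without EED cKO 4 and to 3279 without control 2.

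Across the 12 member probes the genes did not move as 1 block. Fabp4, Lpl, Pparg and Plin2 had higher log2 ratios in EED cKO, with differences between 0.39 and 1.17, while Fabp5, Cd36, Plin1 and Scd1 had differences between -0.07 and 0.20 and Adipoq and Cidec were too dim to be compared. Of 9 member probes bright enough for the fit, 5 passed the adjusted p threshold, all 5 higher, beside 20% of all probes tested. Since the members were chosen on this contrast, nothing is read from that count. The 4 tested probes with all EED cKO arrays above all controls were those of Pparg, Lpl (both probes) and Plin2, beside 9.05% of 30696 probes without a missing value, and none lay wholly below the controls, beside 7.18%. Of the 5 called, Fabp4 alone reached 2-fold. In the Feature Extraction log ratio, the scanner software's own value, Fabp4 was not called, while both Lpl probes and Plin1 were called and reached 2-fold. The Plin1 probe was well above background in the reference channel on 0 arrays, so its ratio there compares signals at or near background.

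**Figure D1:**
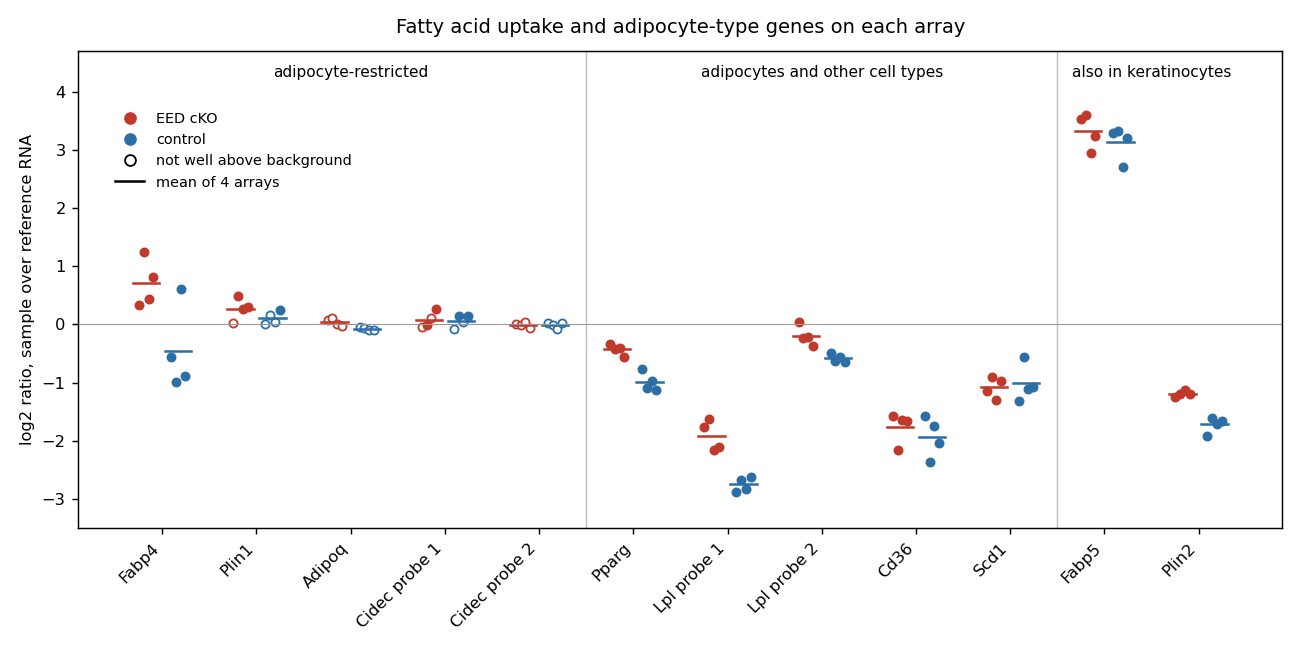
Log2 ratio of sample over reference RNA for each of the 12 member probes, with 1 point per array, a bar at the mean of 4 arrays, and hollow points where the probe was not well above background in the sample channel. Pparg, both Lpl probes and Plin2 separate the genotypes, Fabp4 does so on 7 of 8 arrays with control 3 among the EED cKO arrays, and Adipoq and the dimmer Cidec probe are hollow throughout.

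The genes labelled adipocyte-restricted were mostly at or near background. Of their 5 probes 2 passed the filter, which asked for a signal well above background on 3 of 4 arrays of a genotype, and 2 were well above background on no array. Adipoq, the hormone adiponectin that mature fat cells secrete, was not well above background on any of the 8 arrays in either channel, with raw sample signals between 24 and 49 against local backgrounds of 21 to 27. No fold is given for it, because the probe was not well above background in either genotype.

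Cidec, which drives the fusion of lipid droplets in white fat cells, gave no signal well above background on its dimmer probe. Its brighter probe was well above background on arrays 2 and 4 of each genotype, those with the sample in Cy5, and had log2 ratios of -0.05, -0.02, 0.11 and 0.26 in EED cKO and -0.08, 0.15, 0.05 and 0.15 in control epidermis. The 2 groups overlapped, and the log2 difference was 0.01 with a standard error of 0.07.

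Plin1, the perilipin that guards the droplet of fat cells against lipases, was dim. Its log2 ratios were 0.03, 0.48, 0.27 and 0.31 on EED cKO arrays 1 to 4 and 0.00, 0.16, 0.03 and 0.25 on control arrays 1 to 4. It was well above background on 3 EED cKO arrays but on 1 control array, so it entered the fit only through the EED cKO group. The groups overlapped, as EED cKO 1 lay at the level of the controls, and the log2 difference was 0.16 with a standard error of 0.08. The offset of 50 that was added to every signal shrinks ratios of dim spots, and the Feature Extraction log ratio, which has no such offset, gave 1.34 for the same difference. In the reference channel this probe was well above background on 0 of the 8 arrays. Both values thus compare signals at or near background, and the size of the Plin1 difference depends on the scale.

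Fabp4, the fatty acid binding protein of adipocytes that macrophages and capillary endothelium also make, was the one member of its class detected above background on each of the 8 arrays. Its log2 ratios were 0.33, 1.25, 0.43 and 0.82 on EED cKO arrays 1 to 4 and -0.56, -0.98, 0.60 and -0.89 on control arrays 1 to 4. Control 3 stood at the level of the EED cKO arrays and above 2 of them, while the other 3 controls lay below all EED cKO arrays. Fabp4 averaged 0.71 ± 0.42 over the EED cKO arrays and -0.46 ± 0.73 over the controls (SD, n = 4 each), a log2 difference of 1.17 (standard error 0.33) or 2.25-fold.

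The Fabp4 difference was uneven between the dye orientations. Within the arrays with the sample in Cy3, which include control 3, it was 0.36, and within those with the sample in Cy5 it was 1.98. It was 1.56 without control 3 and 0.92 without EED cKO 2, and it stood at 2.20 in the Feature Extraction log ratio. With controls 1 and 4 alone it was 1.43. Fabp4 was called in 10 of 22 alternatives, and among those with 1 array left out it was called only without EED cKO 1 or control 3. Plin1 did not set control 3 apart, at 0.03, and the same array was the highest control for Cidea, at 2.92, but not for Adig, at 0.21, both genes of adipocytes described further on.

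Fabp4 and Fabp5 lie close together in the genome, separated by Pmp2 and Fabp9 in the order of protein-coding genes on chromosome 3 in RefSeq, with Fabp12 on the other side of Fabp4. The neighbours differed in signal. Fabp9 was well above background on no array, and Fabp12 had a log2 difference of -0.07 with a standard error of 0.08 (limma adjusted p = 0.593). Fabp5, the epidermal fatty acid binding protein, had the highest raw signals of the members, between 81525 and 106849 on the 8 arrays.

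The log2 ratios of Fabp5 were 3.53, 3.61, 2.95 and 3.25 on EED cKO arrays 1 to 4 and 3.29, 3.33, 2.71 and 3.20 on control arrays 1 to 4. The groups overlapped, and array 3 was the lowest in each of them. Between arrays of the same number, which share a dye and a slide column, EED cKO was higher by 0.24, 0.28, 0.24 and 0.04. The log2 difference was 0.20 (standard error 0.16), and the SD was 0.30 within EED cKO and 0.29 within control epidermis (n = 4 each). Fabp4 and Fabp5 thus gave log2 differences of 1.17 and 0.20, and whether these differ from each other was not tested.

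Lpl, the lipase that frees fatty acids from circulating lipoproteins, was read by a pair of probes that separated the genotypes alike. The brighter one gave log2 ratios of -1.76, -1.62, -2.16 and -2.11 on EED cKO arrays and -2.88, -2.67, -2.83 and -2.63 on control arrays. The dimmer one gave 0.04, -0.24, -0.21 and -0.38 on EED cKO arrays and -0.49, -0.63, -0.56 and -0.65 on control arrays. On both probes every EED cKO array lay above every control. The log2 difference was 0.84 (standard error 0.12, 1.79-fold) on the brighter probe and 0.39 (standard error 0.08, 1.31-fold) on the dimmer one, against 1.19 and 1.02 in the Feature Extraction log ratio, where the probes lay closer together. The brighter probe stayed between 0.75 and 0.94 when any 1 array was left out and was 0.84 with controls 1 and 4 alone. The dimmer one lay between 0.33 and 0.43 with any 1 array left out and at 0.38 with controls 1 and 4 alone, and it was not called in that last fit, in the sample channel alone or with median centring.

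**Figure D2:**
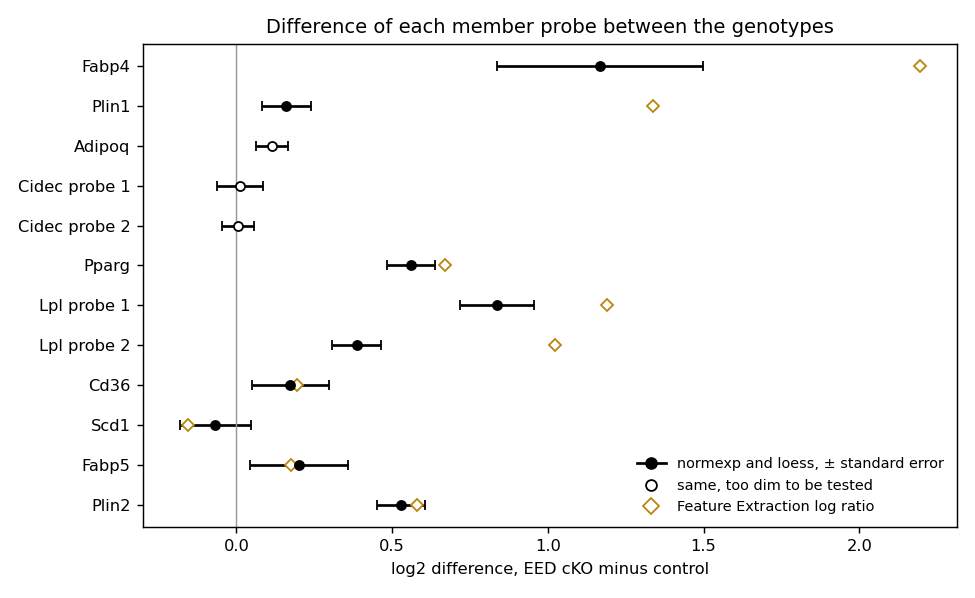
Log2 difference of each member probe, EED cKO minus control, after normexp and loess (circles, with bars of 1 standard error from the fit with dye as a term, n = 4 arrays per genotype, hollow where the probe was too dim to be tested) and in the Feature Extraction log ratio (diamonds). Both scales put Fabp4, Lpl, Pparg and Plin2 above 0, and they differ most for the dim probes of Plin1, Fabp4 and Lpl.

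Pparg, the nuclear receptor that directs fat cell formation and is also active in sebocytes, was printed at 10 spots of the array, 7 to 10 of which were used on each. Its log2 ratios, as means over these spots, were -0.33, -0.42, -0.40 and -0.57 on EED cKO arrays 1 to 4 and -0.76, -1.09, -0.98 and -1.13 on control arrays 1 to 4. The genotypes did not overlap. The spots of 1 array varied by an SD between 0.07 and 0.11. The log2 difference was 0.56 (standard error 0.08, 1.47-fold), with 0.50 within the Cy3 and 0.62 within the Cy5 arrays, and it lay between 0.52 and 0.62 with any 1 array left out and at 0.51 with controls 1 and 4 alone.

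Plin2, the perilipin found on droplets in most cell types, keratinocytes included, behaved in the same way. Its log2 ratios were -1.25, -1.20, -1.13 and -1.19 on EED cKO arrays and -1.92, -1.60, -1.71 and -1.65 on control arrays. All 4 EED cKO arrays stood above the highest control. The log2 difference was 0.53 (standard error 0.08, 1.44-fold), with 0.62 within the Cy3 and 0.43 within the Cy5 arrays, and 0.59 with controls 1 and 4 alone.

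The promoters of Pparg, Plin2 and Adipoq are shown with their CG dinucleotides, since CG-rich promoters are known as common sites of Polycomb binding. They were picked by signal, as Pparg and Plin2 were higher in EED cKO on all arrays and Adipoq was not detected. The arrays measured no Polycomb binding or histone mark. Whether CG content goes with the differences was not tested. The sequences are from a set of mouse promoters on GRCm38.p6 that held 9 start sites for 6 of the 10 genes. It had no entry for Lpl, Fabp4, Fabp5 or Scd1, and their promoters are not shown for that reason alone. Each sequence runs 5′ to 3′ over the 250 bases before a start site, with CG dinucleotides in capitals. The first Pparg window lies at chr6:115360894-115361143 and its most downstream one at chr6:115421816-115422065, both on the plus strand. The Plin2 window is at chr4:86670060-86670309 on the minus strand and the Adipoq window at chr16:23146286-23146535 on the plus strand.
Pparg, first start: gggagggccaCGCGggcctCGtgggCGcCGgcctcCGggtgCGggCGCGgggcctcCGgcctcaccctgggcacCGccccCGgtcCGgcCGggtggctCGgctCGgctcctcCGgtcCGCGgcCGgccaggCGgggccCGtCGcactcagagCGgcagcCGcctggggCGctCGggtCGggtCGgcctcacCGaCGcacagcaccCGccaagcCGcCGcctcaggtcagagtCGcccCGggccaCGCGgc
Pparg, most downstream start: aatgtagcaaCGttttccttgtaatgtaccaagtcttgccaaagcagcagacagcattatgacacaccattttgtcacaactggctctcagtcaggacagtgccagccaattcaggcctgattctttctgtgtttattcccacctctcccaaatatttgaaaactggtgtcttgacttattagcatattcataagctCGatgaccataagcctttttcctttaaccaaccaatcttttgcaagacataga
Plin2: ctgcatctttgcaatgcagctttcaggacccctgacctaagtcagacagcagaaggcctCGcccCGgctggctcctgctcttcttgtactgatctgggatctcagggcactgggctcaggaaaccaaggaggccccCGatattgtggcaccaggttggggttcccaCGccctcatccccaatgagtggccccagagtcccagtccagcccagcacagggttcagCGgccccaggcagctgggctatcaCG
Adipoq: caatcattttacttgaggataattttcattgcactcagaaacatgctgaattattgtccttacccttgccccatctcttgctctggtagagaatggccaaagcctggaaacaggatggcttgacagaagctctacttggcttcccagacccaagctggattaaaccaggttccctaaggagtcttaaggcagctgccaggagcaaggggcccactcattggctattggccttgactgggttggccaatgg

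The first Pparg window held 38 CG dinucleotides, and 1.88% of 32841 mouse promoter windows of the same length held at least as many. The second Pparg window held 12 and the most downstream one held 2. Plin2 held 6, which was also the median of all windows, and Adipoq held 0. Plin1 had 1, Cd36 had 3, and the windows of Cidec had 4 and 6. The arrays do not tell from which Pparg start the RNA came.

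The motif AGGTCANAGGTCA, the direct repeat that PPAR and RXR pairs are known to bind, was searched on both strands and was in none of the 9 windows, as in all but 0.0335% of mouse promoter windows. The single AGGTCA, which every such repeat also contains, was present on either strand in the windows of Plin2, Cd36 and the first and the second Pparg start, against 14% of all windows. These matches describe letters in short windows, and no binding was measured.

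Cd36 and Scd1 did not separate the genotypes. Cd36, the membrane receptor for fatty acids, had log2 ratios of -1.58, -2.16, -1.65 and -1.66 in EED cKO and -1.57, -2.37, -1.75 and -2.04 in control epidermis. Array 2 was the lowest of each genotype, and the log2 difference of 0.17 (standard error 0.12) lay within the SD of either group, 0.27 and 0.35 (n = 4).

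Scd1, the desaturase that makes monounsaturated fatty acids and is abundant in sebaceous glands, had log2 ratios of -1.14, -0.90, -1.31 and -0.97 in EED cKO and -1.32, -0.55, -1.11 and -1.07 in control epidermis. The groups overlapped throughout. The log2 difference of -0.07 (standard error 0.11) changed sign between settings, from -0.24 to 0.12. Lpl, Cd36 and Scd1, though in the same class, gave log2 differences of 0.84, 0.17 and -0.07.

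**Figure D3:**
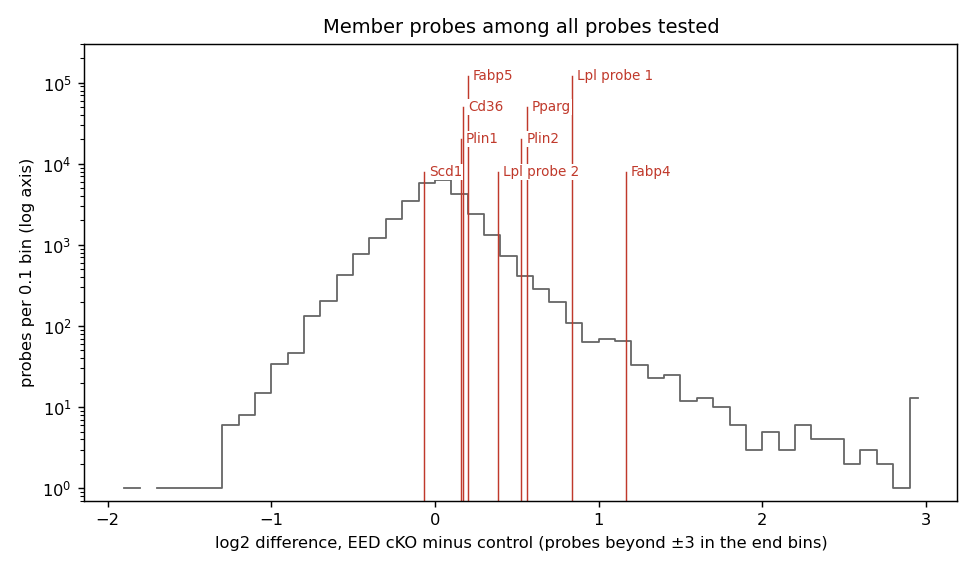
Number of probes per 0.1 bin of the log2 difference, EED cKO minus control, over the 30727 probes tested (grey steps, log axis, probes beyond 3 in the end bins), with red lines at the 9 tested member probes. Scd1, Plin1, Cd36 and Fabp5 lie in the bulk, and Fabp4 lies in the upper tail, with 0.609% of probes at or above it.

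The same reference RNA was on every array, so the reference channel largely leaves out the spread between animals and between their sample preparations. It was read after loess and a quantile step on the mean of both channels, so it is not free of the sample. Among the member probes alone, its log2 difference between EED cKO and control arrays lay between -0.12 for Fabp4 and 0.08 for Scd1. For Pparg, the brighter Lpl probe and Plin2 it was -0.05, -0.02 and 0.05. These values do not hold for other probes. Krt79, read further on, had sample signals of 32400 to 54000 in EED cKO and 14300 to 30000 in control epidermis. Its log2 ratio differed by 0.03, so its reference channel differed between the genotypes as well.

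Of the wider pathway, 112 genes that are no members were read in 5 lists, and 102 were bright enough to be tested. In these lists 28 genes passed, 18 higher and 10 lower in EED cKO, or 27.5% beside 20% of all probes tested, with a median log2 difference of 0.05 beside 0.02. The count was 12 without EED cKO 3, 14 without EED cKO 4, 14 without control 2 and 16 with controls 1 and 4 alone. Among probes well above background on all 8 arrays it was 24, with 13 higher and 11 lower. Some of the genes called higher were thus tested only because they were detected in EED cKO. The lists were drawn up with earlier results of these arrays known.

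Among the genes of fatty acid uptake and binding, 8 of 24 passed (33.3%, beside 20% of all probes tested), 4 higher and 4 lower. The median was -0.03. The count was 4 without EED cKO 3, 5 without EED cKO 4, control 2 or control 4, and 4 with controls 1 and 4 alone. Angptl4, a secreted inhibitor of lipoprotein lipase and a classical PPAR target, had log2 ratios of -0.32, -1.01, -0.83 and -0.01 in EED cKO and -3.30, -2.62, -1.90 and -2.53 in control epidermis. Every EED cKO array was above every control, and the rise was 4.13-fold, or 2.05 in log2 (standard error 0.29, limma adjusted p = 0.00199). Gpihbp1, which carries lipoprotein lipase across capillary endothelium, rose by 0.37 (limma adjusted p = 0.0129), though not with controls 1 and 4 alone (0.0896). Acsl1, which activates fatty acids with coenzyme A, fell by 0.57 (limma adjusted p = 0.00971, and 0.0573 with controls 1 and 4 alone), and its second probe gave -0.31. Acsl6, of the same enzyme family, had a difference of 0.38 (limma adjusted p = 0.0251) that did not pass when EED cKO 1 or 3 or control 1, 3 or 4 was left out. It was well above background on 4 EED cKO and 2 control arrays, so that it was tested only through the EED cKO group.

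Among the PPAR partners and transcription factors of fat cell formation, 5 of 16 passed (31.2%, beside 20% of all probes tested), 3 higher and 2 lower. The median was 0.06. The count was 1 without EED cKO 3, without EED cKO 4, without control 2 or with controls 1 and 4 alone. It was 3 without EED cKO 2, control 1 or control 4. Rxra, the main heterodimer partner of PPARγ in skin, fell by 0.39 (limma adjusted p = 0.00806, and 0.0537 with controls 1 and 4 alone). The coactivator Ppargc1a (0.37, limma adjusted p = 0.0241), the liver X receptor Nr1h3 (0.30, 0.0192) and Rxrg (0.25, 0.0277) rose, but none of these 3 passed without EED cKO 3, without EED cKO 4, without control 2 or with controls 1 and 4 alone. Ppargc1a and Rxrg were also lost without control 1, and Rxrg without EED cKO 2 or control 4. Second probes gave -0.27 for Rxrg, -0.01 for Nr1h3 and -0.22 for Rxra. The log2 differences of Pparg and its partner Rxra thus had opposite signs, 0.56 and -0.39, and the other PPAR genes, Ppara (0.19, limma adjusted p = 0.0591) and Ppard (-0.26, limma adjusted p = 0.149), did not pass. The further Ppara probes gave -0.42 and -0.20, so that the probes of this gene disagreed in sign.

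In the droplet and storage list 10 of 24 genes passed (41.7%, beside 20% of all probes tested), 8 higher and 2 lower. The median was 0.10. The count was 5 without EED cKO 3, EED cKO 4 or control 2 and 4 with controls 1 and 4 alone. Among probes well above background on all 8 arrays it was 9, with 6 higher and 3 lower. Cidea, a droplet protein of brown fat that is also known from sebaceous glands, had log2 ratios of 4.30, 5.13, 4.48 and 4.80 in EED cKO and 1.63, 2.82, 2.92 and 2.64 in control epidermis, and it rose by 2.18 (standard error 0.23, 4.53-fold, limma adjusted p = 0.000445). Gpat3, which starts glycerolipid synthesis, had 1.39, 1.90, 1.21 and 1.99 in EED cKO and 0.20, 0.58, 0.34 and 0.43 in control epidermis, and it rose by 1.23 (standard error 0.10, 2.35-fold, limma adjusted p = 9.98e-05). Neither gene overlapped between the genotypes. Lpin3, a phosphatidate phosphatase, rose by 0.47 (limma adjusted p = 0.0208), though not without EED cKO 2, 3 or 4. Mogat1, an acyltransferase, was not well above background on any control but was so on all 4 EED cKO arrays. It was thus tested only through the EED cKO group. The difference was at least 1.29-fold (limma adjusted p = 0.00916, and 0.0643 with controls 1 and 4 alone). This bound sets the mean of the EED cKO sample channel against a floor for each control array, which is its dimmest detected probe or Mogat1 itself where that was brighter.

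**Figure D4:**
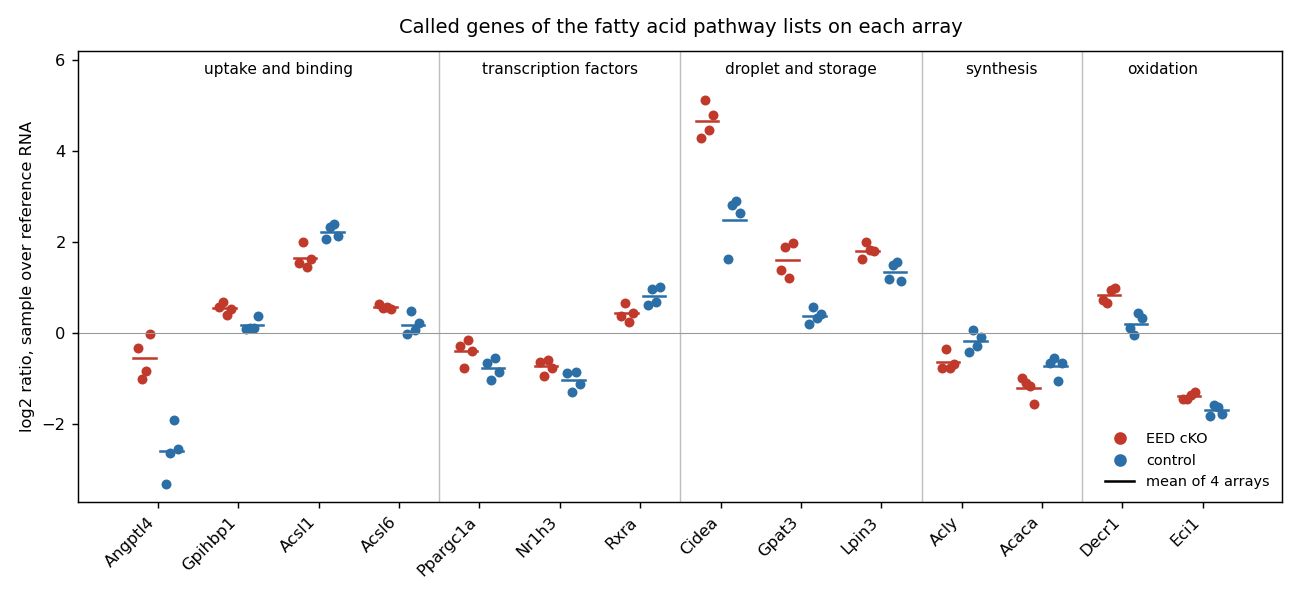
Log2 ratio of sample over reference RNA on each array for 14 called genes of the pathway lists, with 1 point per array and a bar at the mean of 4 arrays. Angptl4, Cidea and Gpat3 stand furthest apart, with log2 differences of 2.05, 2.18 and 1.23, and Acsl1, Rxra, Acly and Acaca lie lower in EED cKO.

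Of 17 genes of fatty acid synthesis and desaturation 2 passed (11.8%, beside 20% of all probes tested), both lower. Acly, which makes cytosolic acetyl-CoA, fell by 0.46 (limma adjusted p = 0.00668, and 0.0555 with controls 1 and 4 alone; its second probe gave -0.06), and Acaca, the acetyl-CoA carboxylase, fell by 0.47 (limma adjusted p = 0.0441), which was lost when any 1 of EED cKO 2, 3 or 4 or control 1, 2 or 4 was left out. Fasn, the fatty acid synthase, had -0.11 (limma adjusted p = 0.378).

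Of 21 genes of fatty acid oxidation 3 passed (14.3%, beside 20% of all probes tested), all higher. Decr1, a mitochondrial reductase needed for unsaturated fatty acids, rose by 0.63 (limma adjusted p = 0.00725), while its second probe gave -0.09. Cpt1c (0.33, limma adjusted p = 0.0247) and Eci1 (0.31, limma adjusted p = 0.0251) rose by less, and each was lost when any 1 of several arrays was left out, namely EED cKO 2 or 3 or control 2, 3 or 4 for Cpt1c and EED cKO 3 or 4 or control 1 or 4 for Eci1. Cpt1c, whose second probe gave 0.23, was also lost with controls 1 and 4 alone (0.117). The list count was 1 without EED cKO 3 or control 4, and 6 without control 3 or with controls 1 and 4 alone.

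Marker genes of the cell types that could carry the members were read in the same fit. Of all probes tested there 20% passed, 10.9% higher and 9.06% lower. Of 18 further adipocyte markers 10 were tested and 5 passed, all higher, namely Cidea, Adig, Gpd1, Ucp1 and Lep. Cidea is also counted in the droplet and storage list. Mrap, Trarg1, Pck1, Car3 and Cox8b were well above background on no array. The count called was 2 without EED cKO 3, control 2 or control 4 and with controls 1 and 4 alone (there Cidea and Adig). It was 3 without EED cKO 2, EED cKO 4 or control 3, and also 3 among probes well above background on all 8 arrays. Summed signals, here and below, are of the sample channel alone and are not divided by the reference, so they can carry differences between slide rows. The summed sample signal of the list ranged from 3420 to 4380 in EED cKO and from 1830 to 2130 in control epidermis. Most of that gap was Cidea, at 1460 to 2510 against 175 to 444, and without it the sums were 1870 to 2000 and 1620 to 1780. Adig, adipogenin, had log2 ratios of 1.39, 1.91, 1.65 and 1.74 in EED cKO and 0.19, 0.38, 0.21 and 0.43 in control epidermis and rose by 1.37 (standard error 0.08, 2.58-fold, limma adjusted p = 1.57e-05). The second Adig probe gave 0.05. Gpd1 (0.44, limma adjusted p = 0.0234), Ucp1 (0.31, 0.0462) and Lep (0.24, 0.0398) differed by less. Retn (0.545, limma adjusted p = 0.0548, second probe 0.69) did not pass, and 9 of the 10 tested markers had positive differences. Gpd1 was lost without EED cKO 3 or 4 or control 2 or 4 and with controls 1 and 4 alone, and Ucp1 without 7 of the 8 arrays in turn and with controls 1 and 4 alone (0.12). Ucp1 was well above background on 3 EED cKO and 2 control arrays and was thus tested only through the EED cKO group.

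Sebaceous gland cells express Pparg, Scd1 and Cidea as well. Of 7 tested sebaceous markers 0 passed in limma (2 at an unadjusted p of 0.05). Exceptions, all higher, were 2 without control 3 and 1 each without EED cKO 1, without EED cKO 2, in the sample channel alone, with the replicate block and with controls 1 and 4 alone. All 7 had positive log2 differences, with a median of 0.21, and the summed signal was 35400 to 58300 in EED cKO against 16500 to 33000 in control epidermis. Krt79 carried most of this sum, and without it the signals overlapped, at 3010 to 4270 against 2170 to 4080. In the log2 ratio Krt79 had a difference of 0.03 (limma adjusted p = 0.844) and turned negative under some settings, and Acsbg1 had 0.42 (limma adjusted p = 0.183), which became 0.78 (limma adjusted p = 0.00417) with controls 1 and 4 alone. The brighter Mc5r probe, which was the one read, gave 0.13, and the second gave 0.55. Elovl3 was too dim to be tested, with 2 EED cKO and 0 control arrays well above background.

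Capillary endothelium expresses Fabp4, Cd36 and Gpihbp1. Of 5 tested endothelial markers 2 passed (40%, beside 20% of all probes tested), both higher. These were Pecam1 (0.89, limma adjusted p = 0.0038) and Kdr (0.62, limma adjusted p = 0.0021). Cdh5, Tek, Tie1 and Esam were well above background on no array. The summed signal was 6380 to 7780 in EED cKO and 4180 to 5780 in control epidermis. Of 9 tested genes of macrophages and Langerhans cells 1 passed, Cd74 (0.46, limma adjusted p = 0.0444), which was lost without EED cKO 1, 3 or 4 or control 1, 2 or 3 and with controls 1 and 4 alone (0.244). Their summed signals overlapped, 4420 to 5500 against 3500 to 7160.

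**Figure D5:**
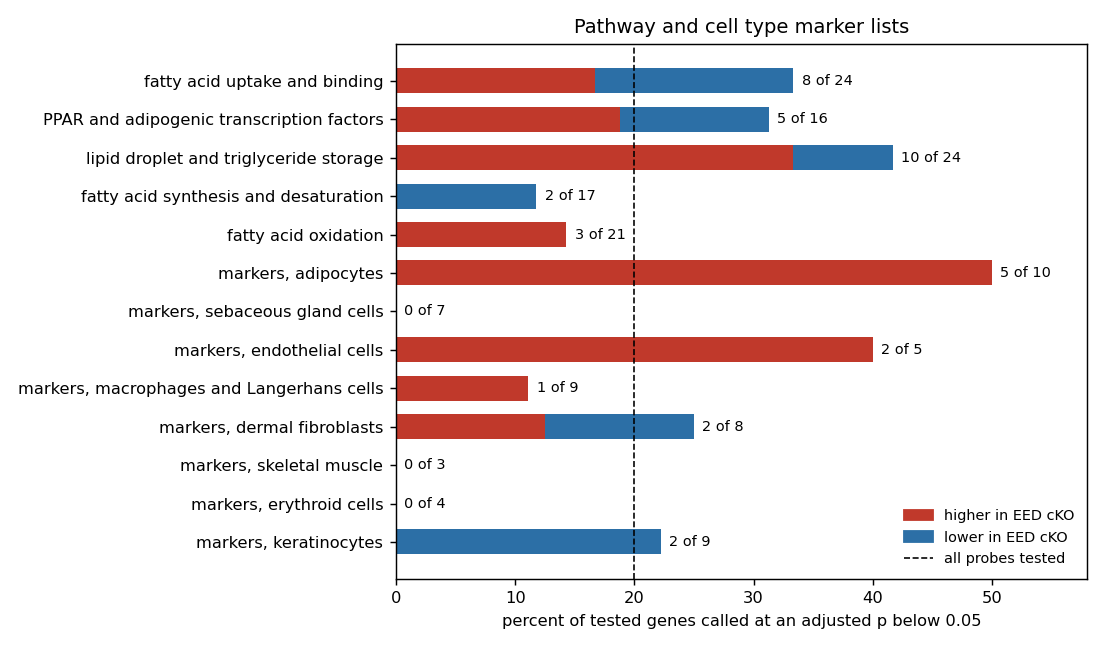
Percent of the tested genes of each pathway and marker list that passed an adjusted p of 0.05, higher (red) or lower (blue) in EED cKO, with the number called of the number tested beside each bar and a dashed line at the 20% of all probes tested. The bars of the adipocyte and endothelial markers stand for 5 of 10 and 2 of 5 genes, all higher, as were those called in the oxidation and macrophage lists, and those called in the synthesis and keratinocyte lists were all lower.

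Of 8 dermal fibroblast markers Lum rose by 0.50 and Postn fell by 0.98 (limma adjusted p = 0.012 and 0.00381), and Lum was lost with controls 1 and 4 alone (0.0641). Of 3 skeletal muscle markers 0 passed in limma (1 at an unadjusted p of 0.05), and of 4 erythroid markers 0 passed (1 unadjusted), but 2 did without EED cKO 1 and 3 without control 1. All 4 erythroid differences were positive, with a median of 1.03, and those of the haemoglobin genes Hba-a1 and Hbb-bt were 1.21 (limma adjusted p = 0.118) and 1.22 (limma adjusted p = 0.147, and -0.27 in the Feature Extraction log ratio). The erythroid signals summed to 1050 to 4880 in EED cKO and 598 to 4040 in control epidermis. Their part in the member differences was not tested. Of 9 keratinocyte markers Itga6 fell by 0.74 (limma adjusted p = 0.00313) and Col17a1 had -0.33 (limma adjusted p = 0.0489), which turned to 0.23 in the Feature Extraction log ratio and was lost without EED cKO 1, 2 or 4 or control 2, 3 or 4 and with controls 1 and 4 alone (0.172). The keratinocyte sum was by far the largest, 413000 to 595000 over the 8 arrays. The part of adipocytes, sebocytes or vessels in the differences of Fabp4, Lpl, Pparg and Plin2 was not tested. In a bulk sample more cells of a type cannot be told apart from more RNA per cell.

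The genes whose pattern over the 8 arrays was most like the mean of Fabp4 and Plin1 were, by Pearson's correlation after removal of the dye mean among 14926 genes, Erich2 (0.981), D630039A03Rik (0.978), Gcnt1 (0.976), Npw (0.975) and Tdp1 (0.973). The 8 points share the difference between the genotypes, so these values are a description. Plin1, Erich2 and D630039A03Rik passed the filter only through the EED cKO group, the last 2 with 0 control arrays well above background.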

How the data were processed

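Epidermal RNA of newborn mice, 4 per genotype, was hybridized to 8 arrays, which were grouped by the sample labels, where they are called biological replicates. The authors scanned the arrays and, per the submitters' processing notes, read them with Agilent Feature Extraction 12.0.1.1. They deposited spot and background intensity values in both channels without normalization, detection flags, and, as the software computed it from its background-subtracted and dye-normalized signals, the log10 of red (Cy5) over green (Cy3). A further deposited table holds log2 ratios, each equal to log2 of processed sample over reference on the same array (largest difference 7.3e-06 on probes with 1 spot), with no centring. The processed log ratio is exactly 0 on 9.09% to 12.8% of spots per array.

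Median spot intensity was corrected by normexp (offset 50), control and outlier spots were dropped, loess was run within each array, ratios were turned to sample over reference, and replicate spots were averaged per probe. Names came from the RefSeq accession (28026 of 29796 matched, GRCm38.p6). The array design is annotated on an older build, so no gene coordinates are given. Of 55681 probes, 30727 passed the filter, a sample signal well above background on 3 or 4 arrays of either genotype. These were fitted with lmFit and eBayes of limma 3.58.1 in R 4.3.3, with terms for genotype and dye and Benjamini-Hochberg adjustment over all of them. A standard error is that of this fit. Values of the sample or the reference channel alone were taken after a further quantile step between arrays, on the mean of both channels. A list gene was read by its probe of highest mean signal.

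The members, the lists and the rule for the named genes were chosen with earlier results of these data known. Named were every member, Eed, up to 4 called genes of largest change per list (the 2 brightest genes where fewer than 2 were called), and the 5 genes most like Fabp4 and Plin1. Fasn, Ppara, Ppard, Lep, Retn, Mc5r, Elovl3, Fabp9, Fabp12 and the markers below background were added after their values were seen. On simulated arrays of 30696 probes, 186 of 200 probes changed 2-fold and 198 of 200 changed 3-fold were called, with 7 and 10 others. These changes were added to ratios already shrunk by the offset, with independent noise. The counts therefore do not hold for a change of that size in the RNA read by dim probes.

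Replicate numbers also mark the slide column and the dye, and the labels do not say whether they pair animals. The deviations of same-numbered arrays from their group means correlated by 0.49, 0.67, 0.32 and 0.36 over probes. After the dye mean was removed the correlation was 0.13 for arrays 1 and 3 and 0.44 for arrays 2 and 4. Arrays that share a dye within a genotype have equal values there by construction. Paired animals cannot be told apart from a shared dye and slide column. The alternatives covered background correction, normalization, filter, covariates, variance, channel, each array left out, the methods' t-test and, added after seeing the data, controls 1 and 4 alone. The number of arrays limits the precision.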

Additional observations from a re-analysis of the deposited data

Results flagged for a closer look

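An array far from the other 3 of its genotype was found in 4 of 94 combinations of named probe and genotype examined, and chance gives about 1 in 20. The log2 ratio of Cd36 was -2.16 on EED cKO 2, against -1.66 to -1.58 on the other EED cKO arrays. That of Gpihbp1 was 0.39 on control 4, against 0.10 to 0.12 on the other controls. Hbb-bt, a haemoglobin gene of red cells, was at 2.04 on EED cKO 1, against 3.68 to 4.00 on the others. Itga6, an integrin of basal keratinocytes, was at 0.46 on EED cKO 4, against 0.68 to 0.70 on the others.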

How the results depend on the processing

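Of all probes, 6135 passed the adjusted p, and 3051 did so with median centring in place of loess (1212 higher, 1839 lower), 2829 without the dye term, 3129 with controls 1 and 4 alone and 3279 to 6133 with 1 array left out. At 2-fold there were 323 (292 higher, 31 lower), 875 with Feature Extraction's own log ratio and 875 with the deposited table (715 higher, 160 lower in each), 320 by the methods' t-test at their thresholds and 185 after Benjamini-Hochberg adjustment. Of the members 5 probes were called, 3 in the sample channel alone (Pparg, the brighter Lpl probe and Plin2), 1 with median centring (Pparg), 4 with controls 1 and 4 alone and 4 to 5 with 1 array left out. The pathway lists gave 28 calls, 18 with Feature Extraction's own log ratio and 18 with the deposited table, 7 with median centring, 10 without the dye term, 16 with controls 1 and 4 alone and 12 to 27 with 1 array left out. The marker lists gave 12, 6 without the dye term and 7 to 15 with 1 array left out (7 without control 2). With the replicate number as a block, which takes up the dye, the counts were 7360 of all probes, 5 member probes, 34 pathway genes and 16 markers. Eed kept its direction and its call in all alternatives. Of 27 named list genes that passed, 8 did so in every alternative they were fitted in, namely Angptl4, Cidea, Gpat3, Decr1, Adig, Pecam1, Postn and Itga6. Signs turned for Krt79 (-0.02 in both Feature Extraction's ratio and the deposited table, 0 with array weights, -0.05 to 0.1 with 1 array left out, of which EED cKO 3 gave 0), Csf1r (-0.08 with median centring, -0.11 to 0.17 with 1 array left out), Cd68 (0 in both of these tables, -0.05 to 0.04 with 1 array left out), Hbb-bt (-0.27 in both) and Col17a1 (0.23 in both). The cause was not tested. Signal over background limits Plin1, Adipoq and Cidec.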
